A study of Mus musculus with 6 samples.

Results

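Imprinted genes are the subject here: 40 genes of the mouse, found by symbol among the 23412 genes of the table of normalized counts. They are known to be expressed mainly from 1 parental allele, some of them only in certain tissues or from certain promoters. They fall into 10 clusters named by their genes, of which that of Gnas is represented by Gnas alone, and 9 other loci with a single listed gene. Of the 40 genes, 36 had a mean normalized count of at least 5 over the 6 libraries and were tested. Airn, Snrpn, Peg13 and Kcnk9 lay below that level.

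Genomic imprinting is the expression of a gene from only the maternally or only the paternally inherited chromosome. It rests on DNA methylation that is set in the egg or the sperm at imprinting control regions, is kept through the demethylation of the early embryo by factors such as ZFP57 and TRIM28, and often acts on a whole cluster through a long noncoding RNA or an insulator. Many imprinted genes regulate growth of the embryo and placenta, and their state is known to vary between mouse embryonic stem cell (mESC) lines and with culture.

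RNA-seq was made from 2 mESC lines of strain 129Sv, R1, the parental wild type line, and HN, an Htt-/- line in which the promoter and exon 1 of Htt were deleted on both alleles. Both were cultured undifferentiated and without feeder cells, in medium with serum, LIF and the inhibitors SU5402, PD184352 and CHIR99021. Each line gave 3 libraries, and libraries of the 2 lines with the same replicate number shared 1 of 3 collection dates. Each genotype is 1 cell line, so the effect of the genotype and other differences between the lines cannot be told apart. Reads were counted per gene over both alleles, so the parental origin of a transcript was not measured.

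Each library held 1640391 to 3866717 reads assigned to genes. Htt had normalized counts of 199 to 257 in R1 and of 18.3 to 58.1 in HN mESCs. The 10 pluripotent cell markers were all expressed, with summed normalized counts of 15605 to 22092 in R1 and 17264 to 23730 in HN mESCs. With the collection date as a block, which compares the lines within each date, 5 of these 10 markers rose at an adjusted p under 0.05 (Tfcp2l1 by 0.56, Klf4 by 0.52, Esrrb by 0.37, Nanog by 0.28 and Dppa5a by 0.27 on the log2 scale) and 2 fell (Fbxo15 by 0.88 and Zfp42 by 0.79), by limma with Benjamini-Hochberg adjustment. Of all tested genes, 5.46% rose and 4.02% fell by this rule. The part of the marker shifts in the results on the imprinted genes was not tested. Values below are normalized counts (reads on the exons of a gene divided by the size factor of the library), in the order of replicates 1, 2 and 3, unless a log2 scale is named. In bulk RNA, fewer cells that express a gene and less RNA per cell cannot be told apart.

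Few of the imprinted genes were called different between the lines. A gene is described as called where the Benjamini-Hochberg (BH) adjusted p-value of limma over all 14276 tested genes was under 0.05 and the log2 fold change of HN against R1 was beyond 1 in either direction. Of the 36 tested genes, 0 were called higher, against 0.119% of all tested genes, and 1 was called lower, against 0.126%. At an unadjusted p under 0.05, limma gave 6 genes as higher and 3 as lower. By adjusted p and fold, edgeR called 0 higher and 1 lower, and DESeq2 called 1 higher (Peg3) and 1 lower. Shares of all tested genes at an unadjusted p, by edgeR or by DESeq2 were not computed, here or for the lists below. Counts by these rules are therefore not read as a result about the listed genes. With the date block, 4 genes were called higher (H19, Peg3, Nnat and Grb10), against 0.911% of all tested genes, and 1 lower (Sfmbt2), against 1.04%. Among these, H19 reached the mean of 5 needed for testing only through its HN libraries. At an adjusted p under 0.05 with any fold, the block gave 6 higher, adding Gnas and Plagl1, where 5.46% of all tested genes passed, and 4 lower, adding Rian, Inpp5f and Impact, where 4.02% passed. The other 26 tested genes did not pass.

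The log2 fold changes of the tested imprinted genes were positive for 19 and negative for 17. Their median was 0.02, and that of all tested genes was -0.01. All 3 HN libraries lay above all 3 R1 libraries for 4 genes (Peg3, Gnas, Plagl1 and Grb10), where 5.23% of all tested genes did so. They lay below for 3 (Sfmbt2, Inpp5f and Impact), where 5.54% did so. In each of the 3 same-date pairs, HN was higher for 10 genes, against 20.3% of all tested genes, and lower for 10, against 21.1%. These last counts, 27.8% of the 36 genes in each direction, are not read as a result about the imprinted genes.

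**Figure D1:**
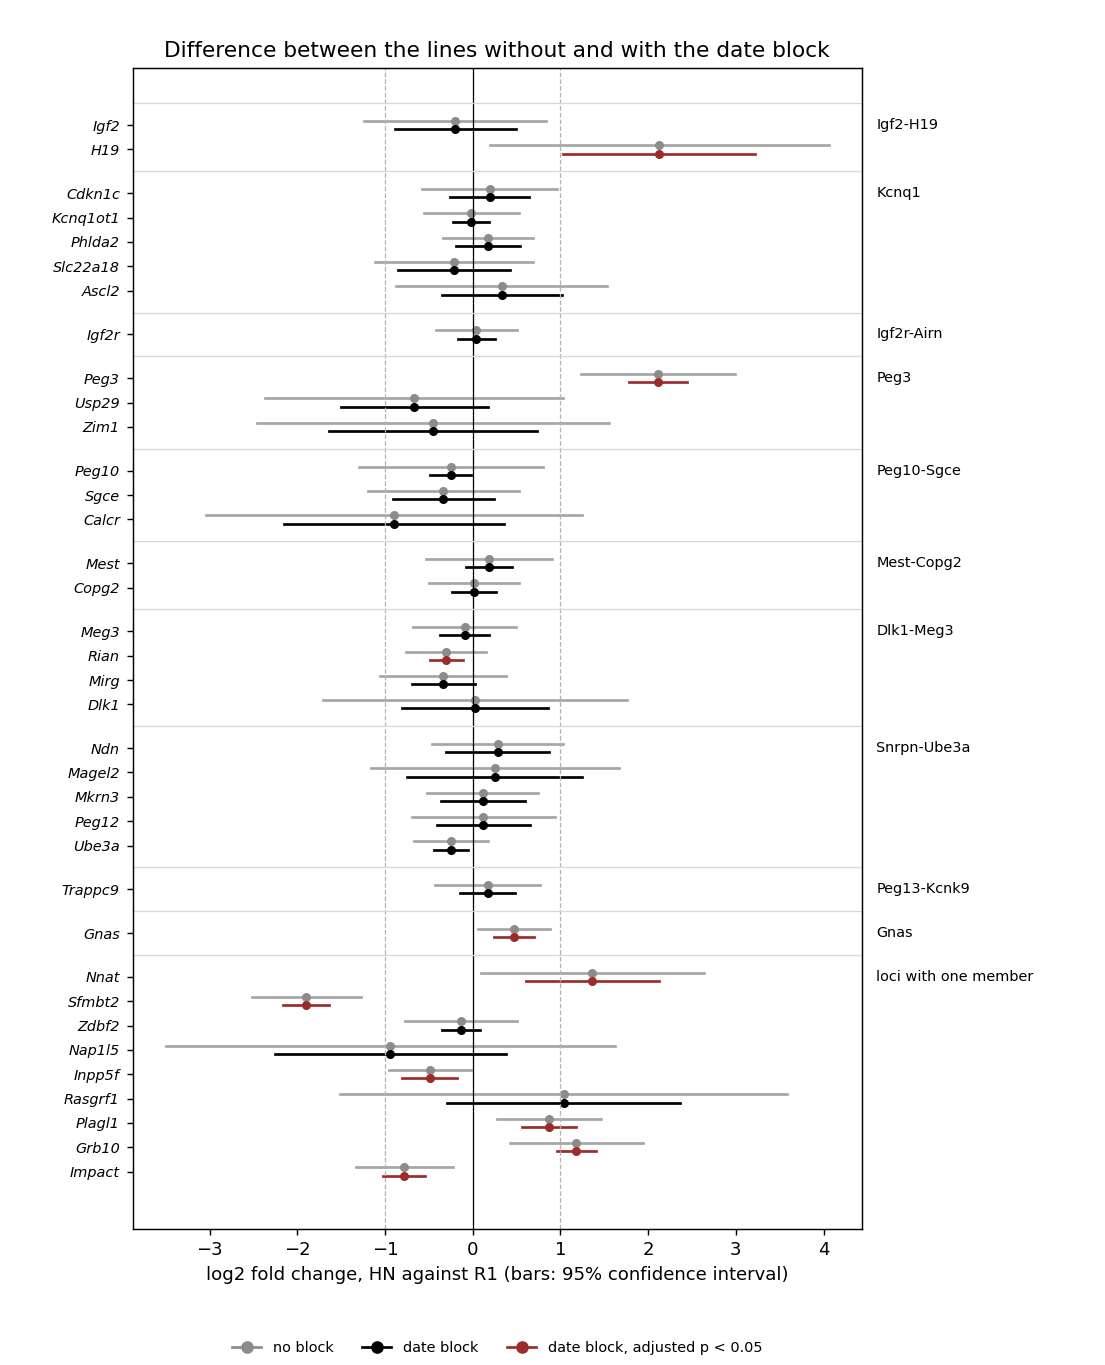
Log2 fold change of HN against R1 mESCs (x axis) for the 36 tested imprinted genes, grouped by cluster, without (grey) and with (black, or red where the adjusted p was under 0.05) the collection date as a block. Points are fitted values, bars their 95% confidence intervals, and dashed lines mark a log2 change of -1 and 1. The 10 red genes are Sfmbt2, Peg3, H19, Grb10, Nnat, Plagl1, Gnas, Impact, Inpp5f and Rian, and the intervals narrow with the block.

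Sfmbt2, a Polycomb-group protein with MBT repeats that is expressed from the paternal allele and is known for its role in the trophoblast, was the imprinted gene called lower. Sfmbt2 had normalized counts of 406, 420.2 and 216 in R1 and of 108, 95 and 67.1 in HN mESCs. The highest HN library lay below the lowest R1 library, which was that of replicate 3. The means were 347 ± 114 and 90.1 ± 21 (SD, n = 3), a log2 fold change of -1.90 with a standard error (SE) of 0.29, 3.73-fold lower in HN (BH-adjusted p = 0.0146 by limma, 3e-13 with the date block). The log2 differences within the dates were -1.90, -2.13 and -1.67. Without the block, the call was lost when R1 replicate 1 or HN replicate 1 was left out (BH-adjusted p = 0.15 and 0.0702 by limma), with log2 fold changes of -1.76 and -2.04. The call was also lost without the variance trend of limma (BH-adjusted p = 0.324). The 6 other tested genes within 500 kb of Sfmbt2 had a median log2 fold change of -0.17, and 0 of them had an adjusted p under 0.05 with the block.

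Sfmbt2 lies on chromosome 2 from 10370510 to 10595253 on the plus strand (GRCm38, GENCODE). The bases just before its first RefSeq start (GRCm38.p6, chr2:10370201-10370450, plus strand) are shown because they lead into the imprinted gene that was called without the block, in lower case with each CpG, the site of imprinting methylation, in capitals.
Sfmbt2: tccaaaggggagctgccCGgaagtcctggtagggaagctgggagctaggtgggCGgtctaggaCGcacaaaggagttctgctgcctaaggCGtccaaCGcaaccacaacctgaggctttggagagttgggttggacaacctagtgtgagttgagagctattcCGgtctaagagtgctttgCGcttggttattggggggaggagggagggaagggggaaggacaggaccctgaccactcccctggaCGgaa
These 250 bases hold 8 CpGs, where the median of all RefSeq promoter windows of that length is 6. The second RefSeq start of Sfmbt2 has 15 CpGs in the bases before it (chr2:10372186-10372435), and the counts per gene do not separate the starts.

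In the Peg3 cluster, Peg3 was higher in HN mESCs, and the other 2 listed genes did not pass the test. Peg3 encodes a paternally expressed zinc finger protein that regulates growth and maternal behaviour. Peg3 had normalized counts of 84.1, 48.8 and 27 in R1 and of 262, 288 and 126 in HN mESCs. Every HN library lay above every R1 library. The means were 53.3 ± 28.8 and 225 ± 87 (SD, n = 3), a log2 change of 2.11 (SE 0.40), 4.33-fold higher in HN. It was not called without the block (BH-adjusted p = 0.0728 by limma), was called by DESeq2 (adjusted p = 7.61e-05), and was called with the date block (BH-adjusted p = 6.25e-12 by limma). The difference held within each date, at 1.63, 2.54 and 2.18 on the log2 scale.

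Usp29, a ubiquitin-specific protease also expressed from the paternal allele, starts next to Peg3 on the opposite strand. Usp29 had normalized counts of 4.26, 13.3 and 36.4 in R1 and of 3.65, 6.38 and 19.5 in HN mESCs. The lines overlapped, and each HN library was below the R1 library of its date. The log2 change was -0.67 (SE 0.78), with a 95% confidence interval of -1.5 to 0.17 with the block, and did not pass the test (BH-adjusted p = 1 by limma, 0.374 with the block). Zim1, the maternally expressed zinc finger gene on the other side of Peg3, had 6.39, 2.22 and 10.8 in R1 and 3.65, 1.42 and 8.66 in HN mESCs, and its interval with the block, -1.64 to 0.73, also held 0. Usp29 and Zim1 were both near the detection limit of 3 reads in several libraries, and 14.3% of the exon bases of Usp29 are shared with Zim3, so their values are uncertain.

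The RefSeq starts of Peg3 (minus strand) and Usp29 (plus strand) are 163 bases apart, in a region known as the imprinting control region of the cluster. The stretch between them (GRCm38.p6, chr7:6730420-6730582, plus strand) is shown because it separates a gene that was called with the block from one that was not, again with CpGs in capitals. Whether the fold changes of Peg3 and Usp29 differ from each other was not tested.
Peg3-Usp29: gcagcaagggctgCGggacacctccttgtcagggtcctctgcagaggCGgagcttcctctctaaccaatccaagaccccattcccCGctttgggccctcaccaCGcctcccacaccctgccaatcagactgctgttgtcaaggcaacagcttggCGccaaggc
It holds 5 CpGs.

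Grb10 and Plagl1, both regulators of growth, were higher in HN mESCs. Grb10 is an adaptor protein that restrains insulin and IGF signalling, expressed from the maternal allele in most tissues and from the paternal allele, through another promoter, in neurons. Grb10 had normalized counts of 341, 337 and 142 in R1 and of 613, 797 and 389 in HN mESCs. The lowest HN library (389) was above the highest R1 library (341), and replicate 3 was the lowest in both lines. The means were 273 ± 114 and 599.8 ± 205 (SD, n = 3), a log2 change of 1.18 (SE 0.35), 2.27-fold higher in HN. It passed only with the date block (BH-adjusted p = 0.437 by limma, 9.97e-10 with the block), and DESeq2 gave an adjusted p of 0.0505.

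Grb10 lies on chromosome 11 from 11930508 to 12038683 on the minus strand. RefSeq gives it alternative starts on the minus strand, which the counts per gene do not separate. The bases before both starts (GRCm38.p6, minus strand, CpGs in capitals) are shown because they differ in CpG content, with 40 CpGs before the outer start (chr11:12037421-12037670) and 8 before the inner start (chr11:12027972-12028221).
Grb10 outer start: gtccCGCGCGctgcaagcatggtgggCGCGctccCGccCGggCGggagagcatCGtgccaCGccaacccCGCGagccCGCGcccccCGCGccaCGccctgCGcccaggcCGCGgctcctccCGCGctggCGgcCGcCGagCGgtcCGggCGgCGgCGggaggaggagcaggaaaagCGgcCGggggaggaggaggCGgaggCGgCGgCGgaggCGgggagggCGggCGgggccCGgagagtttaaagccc
Grb10 inner start: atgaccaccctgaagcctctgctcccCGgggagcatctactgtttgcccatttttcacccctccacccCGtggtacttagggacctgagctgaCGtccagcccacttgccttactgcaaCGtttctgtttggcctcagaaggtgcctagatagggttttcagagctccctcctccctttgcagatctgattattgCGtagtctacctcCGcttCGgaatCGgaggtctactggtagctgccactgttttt
Over the 32 imprinted genes with an entry, the median of 48 windows was 10 CpGs. The motif TGCCGC, the core letters bound by ZFP57 when methylated, was sought on either strand. It was found in 9 of these 48 windows (18.8%) and in 8.68% of all 32851 windows, and in none of the windows printed here. The 9 include overlapping windows of Mest (chr6:30737800-30738049 and chr6:30737803-30738052). The motif holds a CpG, and the windows of imprinted genes had more CpGs, a median of 10 against 6 in all windows. Whether the shares differ was not tested.

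Plagl1 is a paternally expressed zinc finger factor that acts on other imprinted genes and on the cell cycle. Plagl1 had normalized counts of 62.8, 107 and 70.1 in R1 and of 145, 185 and 108 in HN mESCs. The groups were separated by a small gap, since R1 replicate 2 and HN replicate 3 were close. Its log2 change was 0.87 (SE 0.27), under the limit of 1 (BH-adjusted p = 0.511 by limma, 0.000123 with the block). Gnas, which encodes the stimulatory G protein alpha subunit and transcripts of either parental allele from its several promoters, moved in the same direction. Gnas had normalized counts of 219, 236 and 230.5 in R1 and of 352, 327 and 276 in HN mESCs. The R1 libraries lay within a narrow range and the HN libraries were all above it. Its log2 change was 0.47 (SE 0.19), and the gene passed with the block alone (BH-adjusted p = 0.74 by limma, 0.00528 with the block). It no longer passed without replicate 1 or 2 of R1 (BH-adjusted p = 0.0608 and 0.112 by limma with the block) or of HN (0.0694 and 0.117). With the block, leaving out either library of a date leaves the same comparison of the lines. The R1 and HN fits of a replicate number, here and below, are thus not separate checks. Gnas shares 8.83% of its exon bases with Nespas, and the counts do not separate its transcripts.

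**Figure D2:**
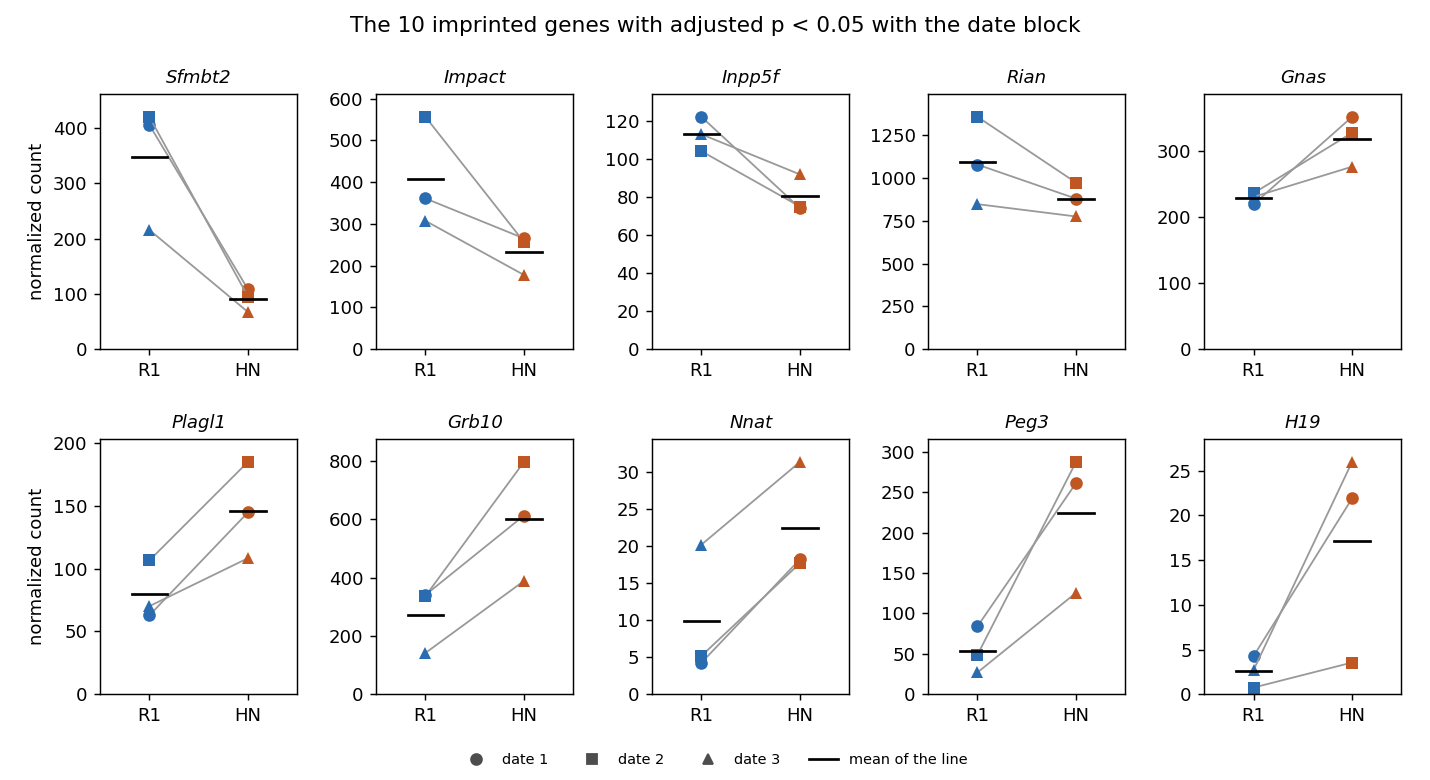
Normalized counts (y axis, from 0, a scale per gene) of the 10 imprinted genes with an adjusted p under 0.05 with the date block, in R1 (blue) and HN (orange) mESCs. Each point is a library, its shape gives the collection date, grey lines join libraries of the same date, and black bars are the means of 3 libraries. All lines fall for Sfmbt2, Impact, Inpp5f and Rian and rise for the other 6 genes, and the points of the lines overlap for Rian, Nnat and H19.

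H19 and Igf2, the classic pair of reciprocally imprinted genes, were both low. H19, a maternally expressed noncoding RNA, had 4, 1 and 2 reads in R1 and 18, 5 and 24 reads in HN mESCs. H19 had normalized counts of 4.26, 0.74 and 2.7 in R1 and of 21.9, 3.54 and 26 in HN mESCs. Replicate 2 of HN lay within the R1 range, and the other 2 HN libraries were above it. The log2 change was 2.13 (SE 0.89), called with the block only (BH-adjusted p = 0.768 by limma, 0.00773 with the block). With the block, H19 passed without R1 replicate 3 (BH-adjusted p = 0.0413 by limma). It did not pass without HN replicate 3 (0.15) or without the third date (0.0771). These fits all compare the lines over dates 1 and 2 alone, with the same log2 change of 1.75. Over all libraries, the size of the H19 difference depended on the pseudocount, from 1.0 with 10 to 2.56 with 0.1. Igf2, the paternally expressed growth factor that shares enhancers with H19, had 12.8, 13.3 and 32.3 in R1 and 19.5, 9.92 and 18.4 in HN mESCs. Its lines overlapped, with an interval of -0.89 to 0.49 on the log2 scale with the block, and 64.6% of its exon bases are also annotated to other transcripts such as Igf2os.

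Nnat, a paternally expressed proteolipid of neural tissue, was also low in R1 and higher in HN mESCs. Nnat had normalized counts of 4.26, 5.18 and 20.2 in R1 and of 18.3, 17.7 and 31.4 in HN mESCs. HN replicates 1 and 2 lay just below R1 replicate 3, and replicate 3 was the highest of each line. Its log2 change was 1.36 (SE 0.58, BH-adjusted p = 0.796 by limma, 0.0146 with the block). With the block, it no longer passed without replicate 1 or 2 of R1 (BH-adjusted p = 0.0555 and 0.149 by limma) or of HN (0.0989 and 0.246). Blcap, in whose span Nnat lies, is antisense to it and did not pass (BH-adjusted p = 0.582 by limma with the block). Nnat and Blcap share no exon bases. Without strand in the counting, reads of unspliced Blcap over the exons of Nnat could not be told apart.

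Impact and Inpp5f were lower in HN mESCs without overlap between the lines. Impact, a paternally expressed inhibitor of the GCN2 kinase, had 361, 556 and 307 in R1 and 265, 257 and 178 in HN mESCs. R1 replicate 2 was the highest library. Its log2 change was -0.78 (SE 0.25, BH-adjusted p = 0.544 by limma, 1.2e-05 with the block). Inpp5f, an inositol phosphatase with a paternally expressed variant, had 122, 104 and 113 in R1 and 74.2, 75.1 and 92.1 in HN mESCs. The log2 fold change of Inpp5f was -0.49 (SE 0.21, BH-adjusted p = 0.811 by limma, 0.0356 with the block). Inpp5f no longer passed without replicate 1 or 2 of R1 (0.235 and 0.266, BH-adjusted p by limma with the block) or of HN (0.21 and 0.244).

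The maternally expressed noncoding RNAs of the Dlk1-Meg3 cluster, a locus whose silencing is a known variation among pluripotent lines, were expressed in both lines. Rian had the highest level per exon length of the cluster, 54 normalized counts per kb, where the median of 13404 tested genes with an exon length was 13.5. Rian had normalized counts of 1077, 1356 and 846 in R1 and of 878, 972 and 774 in HN mESCs. HN replicates 1 and 2 lay within the R1 range, and each HN library was below the R1 library of its date. The means were 1093 ± 255 and 875 ± 98.8 (SD, n = 3), a log2 change of -0.30 (SE 0.21), which passed with the block only (BH-adjusted p = 1 by limma, 0.0319 with the block). Rian no longer passed without replicate 2 of R1 or of HN (BH-adjusted p = 0.628 and 0.626 by limma with the block). Meg3, a noncoding RNA with growth-suppressing activity, had 121, 178 and 98.4 in R1 and 113, 158 and 97.5 in HN mESCs, a log2 change of -0.09 (SE 0.27). Mirg, the host of a group of microRNAs, had 88.4, 119.8 and 48.5 in R1 and 75.4, 70.2 and 47.7 in HN mESCs, a log2 change of -0.34 (SE 0.33). Neither passed with the block (BH-adjusted p = 0.773 and 0.272 by limma). Dlk1, the paternally expressed Notch-related ligand of the cluster, was low, with 5.32, 5.18 and 52.6 in R1 and 11, 7.09 and 21.7 in HN mESCs, and its sign turned negative under count-based tests (-0.63 in edgeR against 0.02).

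None of the 5 genes of the Kcnq1 cluster had an adjusted p under 0.05 in limma without or with the date block. Kcnq1ot1, the paternally expressed RNA that silences the cluster on its chromosome, had 453, 626 and 381 in R1 and 521, 582 and 344 in HN mESCs. The log2 change was -0.02 (SE 0.25), with an interval of -0.22 to 0.19 with the block. Its reads can include unspliced Kcnq1, in whose span it lies on the other strand. Phlda2, a maternally expressed restraint on placental growth, had the highest level per exon length of the cluster (55.6 per kb), with 63.9, 60.7 and 51.2 in R1 and 74.2, 62.4 and 61.7 in HN mESCs. Cdkn1c, the maternally expressed cell cycle inhibitor p57, had 29.8, 28.9 and 58 in R1 and 41.4, 30.5 and 59.6 in HN mESCs. Slc22a18, a transporter, ranged from 11.9 to 27.7 over the 6 libraries, and Ascl2, a transcription factor of the trophoblast, from 7.4 in R1 replicate 2 to 44.5 in R1 replicate 3. With the block, the log2 intervals were -0.19 to 0.54 for Phlda2, -0.26 to 0.64 for Cdkn1c, -0.85 to 0.42 for Slc22a18 and -0.35 to 1.01 for Ascl2.

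Igf2r, the maternally expressed receptor that clears IGF2, was well expressed in both lines. Igf2r had normalized counts of 573, 394 and 398 in R1 and of 518, 386 and 486 in HN mESCs. The lines overlapped in full, with a log2 change of 0.04 (SE 0.21) and an interval of -0.17 to 0.25 with the block. Airn, the paternal antisense RNA that silences Igf2r where imprinting is established, had between 0 and 3 reads per library. At this depth no comparison of Airn can be made.

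In the Peg10-Sgce cluster, none of the 3 genes passed the test of the lines, and Peg10 differed between the collection dates. Peg10, a paternally expressed gene of retrotransposon origin needed for the placenta, had 324, 779 and 233 in R1 and 352, 622 and 159 in HN mESCs. Replicate 2 was the highest and replicate 3 the lowest in both lines. On the log2 scale, the change was -0.25 (SE 0.48, BH-adjusted p = 0.184 by limma with the block), with an interval of -0.48 to -0.02 with the block, which leaves out 0 before adjustment over all genes. Sgce, the paternally expressed sarcoglycan that shares its start region with Peg10, had 43.6, 17.8 and 25.6 in R1 and 21.9, 16.3 and 27.1 in HN mESCs. Calcr, the maternally expressed calcitonin receptor, had 4.26, 3.7 and 12.1 in R1 and 2.43, 0.709 and 7.58 in HN mESCs, of which several libraries were at the detection limit. Neither Sgce (-0.91 to 0.24) nor Calcr (-2.15 to 0.36) had a log2 interval with the block that left out 0.

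Mest and Copg2 overlap tail to tail, and 23.1% of the exon bases of Mest and 17.8% of those of Copg2 are shared. Mest, a paternally expressed hydrolase-like protein of mesoderm, had 144, 264 and 115 in R1 and 142, 281 and 159 in HN mESCs. Replicate 2 was the highest in each line. Copg2, a subunit of the COPI coat, had 229.9, 147 and 195 in R1 and 218, 147 and 212 in HN mESCs. With the block, the log2 intervals were -0.08 to 0.44 for Mest and -0.23 to 0.26 for Copg2, and neither gene passed. Without strand in the counting, reads of the shared part cannot be told apart.

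The Snrpn-Ube3a cluster, which corresponds to the Prader-Willi and Angelman region of human, had 0 genes with an adjusted p under 0.05 without or with the block in limma. Ube3a, the E3 ubiquitin ligase that is silenced on the paternal allele in neurons, was its gene with the highest level per exon length (24.4 per kb). Ube3a had normalized counts of 547, 636 and 461 in R1 and of 466, 511 and 401 in HN mESCs. Each HN library was below the R1 library of its date while the lines overlapped. On the log2 scale, Ube3a differed by -0.25 (SE 0.19, BH-adjusted p = 1 by limma, 0.108 with the block). Its interval with the block, -0.45 to -0.05, left out 0 before adjustment over all genes, and 27.3% of its exon bases are shared with neighbouring transcripts such as Snhg14. The paternally expressed genes at the other end of the cluster had levels of 1.51 to 13.3 per kb. Ndn, a growth suppressor of neurons, had 16, 24.4 and 18.9 in R1 and 21.9, 24.1 and 26 in HN mESCs. Magel2, a ubiquitin ligase regulator, had 4.26, 6.66 and 8.09 in R1 and 6.08, 7.09 and 9.75 in HN mESCs. Mkrn3, a ring finger protein that restrains puberty, had 36.2, 36.2 and 25.6 in R1 and 37.7, 36.1 and 31.4 in HN mESCs, and Peg12, a Frat-family gene, had 23.4, 18.5 and 36.4 in R1 and 21.9, 23.4 and 40.1 in HN mESCs. Their log2 fold changes lay between 0.11 and 0.29, and none had an adjusted p under 0.05 with the block. Snrpn, the splicing protein that gives the cluster its name, is listed with 1 read in HN replicate 2 and 0 in the other libraries. Since Snrpn shares exons with Snurf and other annotated transcripts (34.1% of its exon bases), a count near 0 is not read as lack of expression.

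In the Peg13-Kcnk9 cluster, Trappc9, a subunit of a vesicle tethering complex, was the tested gene. Trappc9 had normalized counts of 111, 71 and 72.8 in R1 and of 129, 82.2 and 76.9 in HN mESCs. HN was higher in each date, and the lines overlapped, with an interval of -0.15 to 0.49 on the log2 scale with the block. Peg13, a paternal noncoding RNA inside Trappc9, had 1, 1 and 6 reads in R1 and 1, 9 and 9 in HN mESCs. Kcnk9, a maternally expressed potassium channel, had at most 3 reads in every library.

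Among the remaining loci with a single listed gene, Zdbf2 was well expressed and Nap1l5 and Rasgrf1 were not. Zdbf2, a paternally expressed zinc finger gene of the brain, had 395, 638 and 278 in R1 and 353, 499.7 and 302 in HN mESCs, a log2 change of -0.13 (SE 0.29) with an interval of -0.35 to 0.09 with the block. Nap1l5, a nucleosome assembly protein, had 1.06, 5.18 and 21.6 in R1 and 1.22, 0.709 and 9.75 in HN mESCs. Rasgrf1, a Ras exchange factor, had 0, 1.48 and 14.8 in R1 and 4.87, 2.84 and 14.1 in HN mESCs. For both, replicate 3 was far above the other replicates in each line, and the log2 intervals with the block were wide, -2.26 to 0.37 for Nap1l5 and -0.29 to 2.37 for Rasgrf1.

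**Figure D3:**
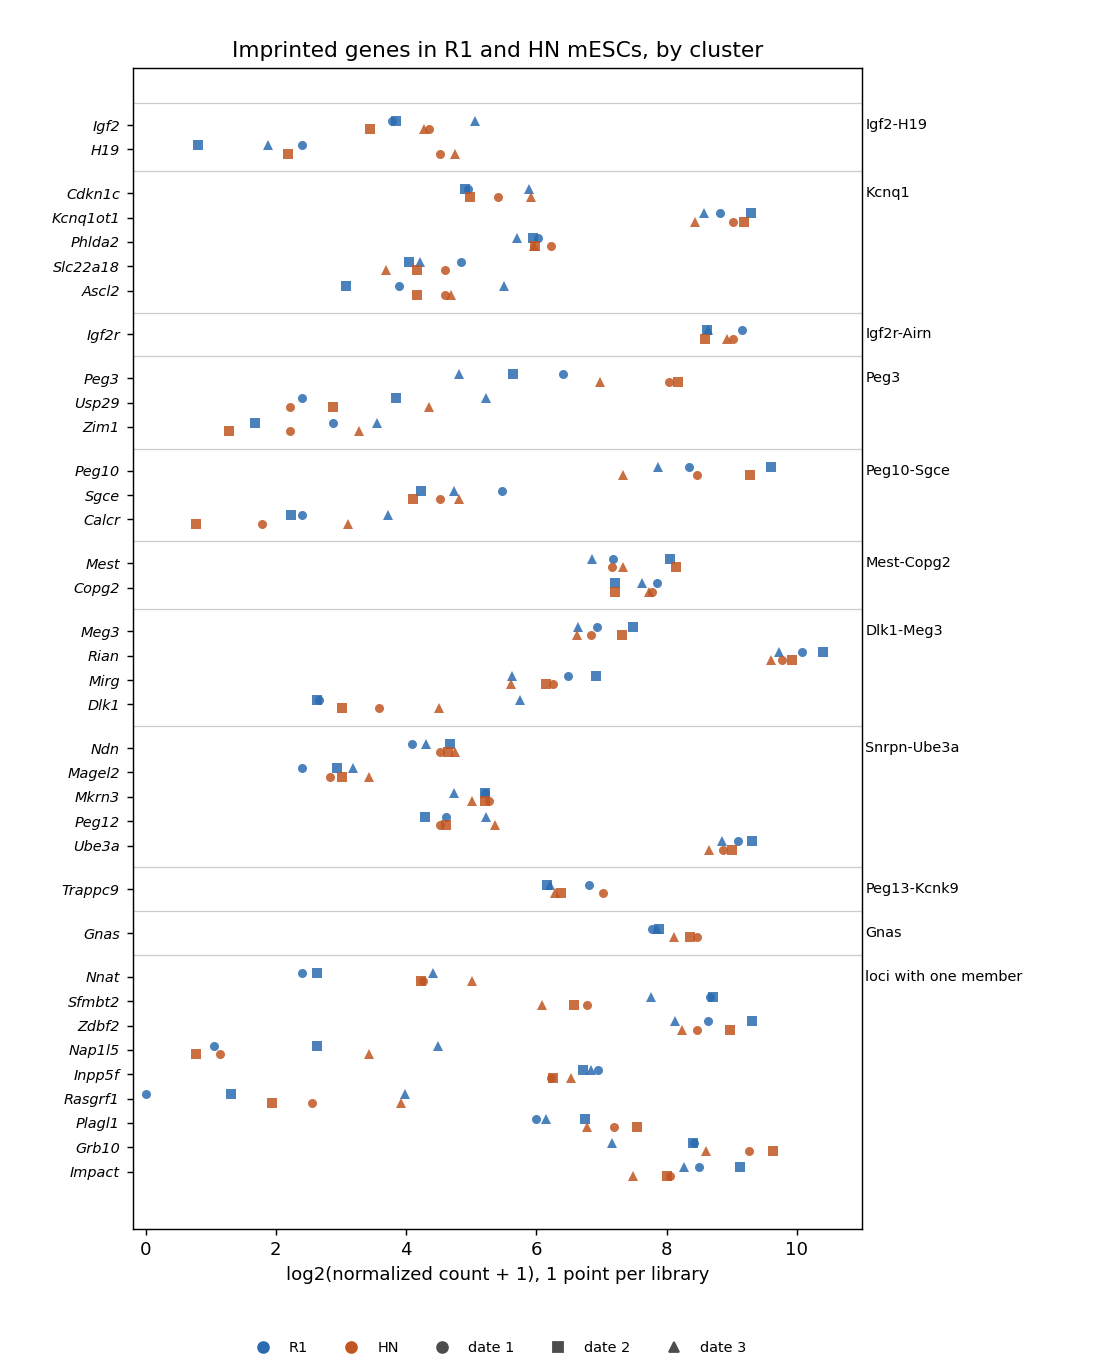
Log2 of the normalized count plus 1 (x axis) of the 36 tested imprinted genes, 1 row per gene and grouped by cluster, in R1 (blue) and HN (orange) mESCs. Each point is a library, and its shape gives the collection date. Rian, Kcnq1ot1 and Ube3a are among the genes with the most reads, and the rows of Sfmbt2, Impact, Inpp5f, Peg3, Gnas, Plagl1 and Grb10 have separate colours.

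The genes were also grouped by the parental allele they are known for, which for some, such as Ube3a and Inpp5f, holds only in certain tissues or transcripts. Of the 23 genes known as paternally expressed, 20 were tested, with a median log2 fold change of 0.00 from 10 positive and 10 negative values. With the date block, 3 of them rose (Peg3, Nnat and Plagl1) and 3 fell (Sfmbt2, Inpp5f and Impact), where 5.46% and 4.02% of all tested genes did so. Of these, Nnat and Inpp5f no longer passed without replicate 1 or 2 of either line. Of the 15 maternally expressed genes, 14 were tested, with a median of -0.04 from 7 positive and 7 negative values, and H19 rose and Rian fell with the block. H19 passed without R1 replicate 3 but not without HN replicate 3, and Rian did not pass without replicate 2 of either line. Gnas and Grb10, which are expressed from either allele by promoter, both rose with the block, Gnas not without replicate 1 or 2 of either line. Of the 7 clusters with at least 2 tested genes, 0 had more than 1 gene with an adjusted p under 0.05 with the block.

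The levels of the imprinted genes per exon length were spread from below the lower to above the upper quartile of all tested genes. The quartiles of 13404 tested genes were 4.36 and 40.3 normalized counts per kb. Impact (62.5 per kb), Peg10 (61.7), Phlda2 (55.6), Rian (54), Igf2r (49.3), Grb10 (48) and Mest (46.7) lay above the upper quartile over the 6 libraries. Sfmbt2, at 38 ± 12.5 in R1 and 9.88 ± 2.3 in HN mESCs (n = 3, SD), lay above the median of 13.5 in R1 and below it in HN mESCs. Peg3 was below the lower quartile in R1, at 4.0 ± 2.16, and above the median in HN mESCs, at 16.9 ± 6.53. Exon length here is that of all annotated exons of a gene, so the level of a gene with long or rarely used exons is understated.

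Factors known to act on imprints or on DNA methylation were expressed in both lines, and some of them differed within dates. Dppa3 and Ctcfl were low, with means of 6.3 and 9.96 in R1 and of 8.41 and 7.97 in HN mESCs. Of the 24 genes of that list, all were tested. None were called without the block by limma, edgeR or DESeq2, or with it by limma or edgeR, with 1 higher and 2 lower at an unadjusted p under 0.05 in limma without the block. With the block, 3 rose and 3 fell at an adjusted p under 0.05, where 5.46% and 4.02% of all tested genes did. Zfp57, which binds methylated imprinting control regions, had 1386, 1821 and 797 in R1 and 2038, 2328 and 1187 in HN mESCs, a log2 change of 0.49 (BH-adjusted p = 0.000146 by limma with the block), and the lines overlapped. Uhrf1, the partner of the maintenance methyltransferase, and Tet2, a dioxygenase of methylcytosine, also rose, by 0.57 and 0.62 on the log2 scale. Dnmt3a and Dnmt3l, a de novo methyltransferase and its cofactor, fell by 0.96 and 0.71. Zfp42 (Rex1), a YY1-related factor that binds some imprinted loci and a marker of pluripotency, fell by 0.79, unlike the 5 pluripotent cell markers that rose, from 2009, 2381 and 1886 in R1 to 1061, 1295 and 1272 in HN mESCs without overlap. For Trim28 and Dnmt1, the adjusted p with the block was 0.822 and 0.333 by limma. The part of these factors in the differences above was not tested.

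Of 43 further imprinted genes, 27 were tested, with a median log2 fold change of 0.03. Without the block 0 were called by limma, edgeR or DESeq2, and 1 was higher and 1 lower at an unadjusted p under 0.05 in limma. With the block, Pon3, a paraoxonase near Peg10, was called lower (1 of 27, against 1.04% of all tested genes), with 19.2, 20.7 and 14.8 in R1 and 3.65, 4.96 and 15.2 in HN mESCs and a log2 change of -1.32 (BH-adjusted p = 0.0433 by limma with the block). HN replicate 3 lay within the R1 range. Qpct, a glutaminyl cyclase, rose by 0.81 (BH-adjusted p = 0.0233 by limma with the block).

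The genes around the imprinted loci were also compared. Within 500 kb on either side of the 19 clusters and single loci lay 138 other tested genes, counted per locus. The windows of Igf2-H19 and Kcnq1 overlap, and genes in both were counted for each, so there were fewer different genes. Without the block, 0 were called higher and 1 lower, Adam23, which lies beyond Zdbf2, against 0.119% and 0.126% of all tested genes. Adam23, a cell surface protein of neurons, had 574, 558 and 450.2 in R1 and 103, 228 and 95.3 in HN mESCs, a log2 change of -1.99 (SE 0.30, BH-adjusted p = 0.0146 by limma). Each HN library lay below every R1 library, while Zdbf2 itself overlapped. With the block, 0 neighbours were called higher, against 0.911% of all tested genes, and 5 lower, against 1.04%. These were Adam23, Agpat4 near Igf2r (-1.01), Aurkc (-2.02) and Vmn2r29 (-1.45) near Peg3, and Pon3, as log2 fold changes. Of the Peg3 cluster, 2 of the 12 tested neighbours were called lower with the block, while Peg3 was higher. Aurkc had 20.2, 5.92 and 37.7 in R1 and 4.87, 0.709 and 7.58 in HN mESCs. Vmn2r29 had 14.9, 13.3 and 86.3 in R1 and 12.2, 2.84 and 18.4 in HN mESCs. For both, the lines overlapped and replicate 3 was the highest of each line.

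Some imprinted genes differed between the collection dates. Replicate 3 was compared with replicates 1 and 2 in a fit with the line as a term. At the third date 7 imprinted genes were called higher (Ascl2, Usp29, Calcr, Dlk1, Nnat, Nap1l5 and Rasgrf1), or 7 of 36 against 14.0% of all tested genes, and 3 lower (Peg3, Peg10 and Grb10), against 1.49%. Dlk1 differed by 2.15 (BH-adjusted p = 0.000289 by limma), and R1 replicate 3, at 52.6, was the highest of the 6 libraries. Peg10 differed by -1.33 (BH-adjusted p = 9.94e-10 by limma). The direction went with the level of the gene. Among imprinted genes with a mean from 5 to 50, 7 of 17 were called higher and 0 lower, and among those with a mean of at least 50, 0 of 19 were called higher and 3 lower. All tested genes showed the same split, with 1974 higher and 90 lower of 6617 below a mean of 50, and 21 higher and 123 lower of 7659 at a mean of 50 or more. Both libraries of the third date also had the most genes with at least 1 read (20675 and 20542, against 18133 to 19083 in the others), and the part of this in the date difference was not tested. Without R1 replicate 3, 0 imprinted genes were called higher at the third date by limma, and without R1 replicate 1, 1 was called lower.

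**Figure D4:**
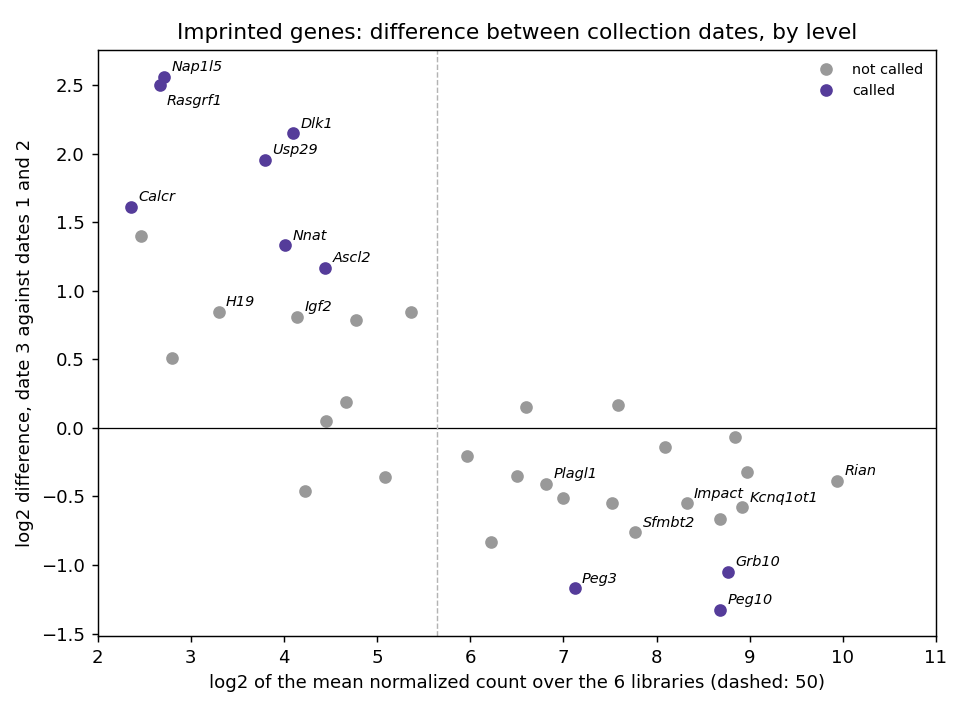
Log2 difference between the third date and the mean of the other dates (y axis) against log2 of the mean normalized count over the 6 libraries (x axis), for the 36 tested imprinted genes. Each point is a gene, purple where called, and the dashed line marks a mean of 50. The 7 genes called higher lie left of the line and the 3 called lower (Peg3, Peg10 and Grb10) right of it.

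Levels of other cell types were measured beside these results. The summed normalized counts of 10 primitive endoderm markers were 294 to 423 in R1 and 558 to 715 in HN mESCs, without overlap, as for Peg3, Gnas, Plagl1 and Grb10. Most of that sum was Lama1, a laminin chain that was called higher with the block (BH-adjusted p = 3.17e-09 by limma), and without it the other 9 markers summed to 44.4 to 179 in R1 and 43.2 to 154 in HN mESCs. Of these markers, Ttr had at most 3 reads in each library. Over the 6 libraries, Gata6 ranged from 8.14 to 42.2, Gata4 from 2.96 to 32.5, Sox17 from 4.25 to 40.4 and Pdgfra from 4.44 to 22.9. The 10 mesoderm markers summed to 92.6 to 205 in R1 and 217 to 282 in HN mESCs, also without overlap. T and Eomes had the highest means of that list, 25.7 and 65.8 in R1 and 53.5 and 125 in HN mESCs. Means of Gsc, Lhx1, Mesp1, Hand1 and Evx1 were lower in HN mESCs, and those of Mixl1, Tbx6 and Kdr higher. None of the other 6 tested mesoderm markers passed with the block. The mesoderm marker T was called higher with the block (BH-adjusted p = 0.001 by limma). Eomes, in both the mesoderm and the trophoblast list, rose by 0.96 on the log2 scale (BH-adjusted p = 8.57e-05 by limma with the block). The 10 fibroblast markers overlapped, at 84.3 to 216 in R1 and 46.8 to 128 in HN mESCs, with Col6a1 and Dcn at no more than 3 reads and Thy1 and Pdgfrb called lower with the block. Trophoblast markers, of which Ascl2 is also an imprinted gene listed here, summed to 146 to 268 in R1 and 211 to 255 in HN mESCs, with Tpbpa at no more than 3 reads, and Tfap2c of that list fell by 0.74 (BH-adjusted p = 0.0132 by limma with the block). Neural progenitor markers summed to 306 to 469 in R1 and 213 to 406 in HN mESCs, and Tubb3 of that list fell by 0.76 (BH-adjusted p = 0.000745 by limma with the block). The part of other cell types in the differences of the imprinted genes was not tested.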

How the data were processed

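RNA-seq libraries of R1 and HN mESCs (3 each) were analysed from 1 table of all 6 libraries. Per the study's methods, the authors used STAR for alignment (mm10/GRCm38), Picard to take out PCR duplicates and HTSeq for counts of reads on exons, which they normalized in DESeq2. Thus the deposited table holds a signal, the normalized count of each gene. Strand use, versions and the annotation are not given in the sources used here. Divided by what 1 read is worth in its library, 100% of values were whole (within 0.01), so reads were recovered for depth, edgeR 4.0.16 and DESeq2 1.42.0. Low genes carry the largest counting error. Unused columns of samples numbered 0, and 27 lines with a date in place of a gene name are not named.

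Values were tested as log2(value + 1) with limma 3.58.1 (variance trend, R 4.3.3) for 14276 genes with a mean of at least 5, without a block, since the study's methods name none. Fold changes are on this scale, which understates those of low genes. The replicate number was also used as a block. It pairs the libraries because the labels give same-numbered libraries of both lines 1 collection date, and their deviations from the line means were correlated at 0.25, 0.69 and 0.77 across genes. Per the study's methods, the replicates were batches of cells from separate dates. P-values without the block thus draw on the spread between batches of 1 line each. With the block, they draw on the spread of the difference between the lines over the dates. In both, limma moderates the variance of a gene towards that of all tested genes of like level. A very small p with the block therefore does not measure how well 1 gene by itself repeated over 3 dates. An exact permutation test of 3 against 3 libraries cannot give a p below 0.1 and was not used. The fits were tested on simulated data. Other alternatives were TMM scaling, pseudocounts of 0.1 and 10, other filters, no variance trend and leaving out each library. Block fits that left out a library or the third date were added after seeing the data. In these, leaving out either library of a date takes that date out of the comparison of the lines.

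Positions and exon lengths are from GENCODE M21 (21712 gene names matched), and sequences from RefSeq (GRCm38.p6), where 32 of the 40 imprinted genes had an entry. All 40 are accounted for by name. From the further lists, and from genes within 500 kb, those called in either fit are named. Others were chosen after their values were seen (Zfp57, Uhrf1, Tet2, Dnmt3a, Dnmt3l, Zfp42, Trim28, Dnmt1, Dppa3, Ctcfl, Qpct, Blcap, the cell markers that passed with the block, and the other mesoderm markers). The genes and lists were chosen with earlier results of these data known. Zfp42, Dcn, Ascl2, Eomes and Hand1 each stand in more than 1 list.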

Additional observations from a re-analysis of the deposited data

How the results depend on the processing

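Over 16 alternatives, 37 of 559 log2 fold changes of single genes changed sign, in 17 of the 36 genes, and 19 genes, among them the 10 with an adjusted p under 0.05 with the block, kept their sign. With the replicate block, 4 imprinted genes were called higher by limma and 4 by edgeR, against 0 without it, and 10 had an adjusted p under 0.05 in both, against 1. It also changed the calls of Pon3, Agpat4, Aurkc, Vmn2r29, Lama1, T, Thy1 and Pdgfrb, which are not among the 40, and no other call among the 36 tested. DESeq2 and the fit with no filter each called 1 higher (Peg3) and gave 2 with an adjusted p under 0.05. Without the variance trend 0 were called lower and 0 had an adjusted p under 0.05. Leaving out 1 library in turn gave 0 to 1 called higher, 0 to 1 called lower and 0 to 2 with an adjusted p under 0.05. With the block it gave 3 to 4 higher and 1 lower, and without the third date 3 higher and 1 lower. At the third date, 4 genes were called higher with a pseudocount of 10 and 4 without the variance trend. With a mean of at least 50 there were 0, since none of the 7 had that level, and leaving out a library gave 0 to 8 higher and 1 to 4 lower. Dlk1 was negative in edgeR (-0.63), edgeR with the replicate block (-0.34), DESeq2 (-0.68) and with a pseudocount of 10 (-0.12), and Ascl2 in DESeq2 (-0.0079). The cause was not tested.

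In the fits that each lacked 1 library, the log2 fold changes of 17 genes took both signs. It ran from -0.42 to 0.22 for Igf2, -0.052 to 0.51 for Cdkn1c, -0.18 to 0.21 for Kcnq1ot1, -0.44 to 0.022 for Slc22a18, -0.21 to 1.01 for Ascl2, -0.053 to 0.22 for Igf2r, -1.38 to 0.036 for Usp29 and -0.97 to 0.035 for Zim1. It ran from -0.71 to 0.27 for Peg10, -0.12 to 0.53 for Mest, -0.16 to 0.19 for Copg2, -0.29 to 0.14 for Meg3, -0.50 to 1.06 for Dlk1, -0.049 to 0.19 for Mkrn3, -0.14 to 0.38 for Peg12, -0.062 to 0.37 for Trappc9 and -0.41 to 0.18 for Zdbf2. Depth limits the low genes most, and the detection limit of 3 reads is a set value that was not estimated from the data.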
